A study of Rattus norvegicus with 18 samples.

Results

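The genes described here are Col1a1 (ENSRNOG00000003897), Col1a2 (ENSRNOG00000011292) and Col3a1 (ENSRNOG00000003357), which encode the chains of the fibrillar collagens of types I and III. They were taken by their Ensembl gene IDs, and all 3 were found among the 30560 gene rows of each count file and passed the filter on low counts that left 11268 genes. The symbols come with these IDs from the choice of the genes, since the deposited files carry IDs only. The livers came from adult female rats about 1 year old, in a study that gave vitamin D for 3 months at the dose of the group. The groups were 0 U/kg (called undosed here, after the label alone), 1000 U/kg and 5000 U/kg, with 6 rats each. The labels name neither the strain nor the route, and leave unsaid what the kg of the dose refers to. They name no fibrosis model and no other treatment in any group. Each library is 1 rat in the labels.

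Fibrillar collagens give connective tissue its tensile strength. In type I collagen the chains encoded by Col1a1 and Col1a2 wind together into a helical molecule, while type III collagen is built of the Col3a1 chain alone and is often found in the same fibres. In liver these genes are known as products of stellate cells, portal fibroblasts and the myofibroblasts that arise from them in scarring, and hepatocytes express them little. The cell source was not measured here, because whole liver was sequenced and no other row could be tied to a marker gene. In such bulk samples, fewer cells of a type and less RNA per cell cannot be told apart.

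Values are CPM, the gene's counts relative to all gene counts of the library, scaled by TMM unless stated. The libraries were made from the 3' ends of transcripts, so a CPM follows the number of transcripts rather than their length. Gene counts totalled 6787033 to 12555457 per library, and the collagen counts behind the values were 19 to 932 for Col1a1, 20 to 386 for Col1a2 and 140 to 730 for Col3a1. Of the 18 libraries, 2 had a mean Spearman correlation with their own group under 0.85, the undosed replicate 2 (0.698) and replicate 5 at 1000 U/kg (0.801). The other 16 lay between 0.869 and 0.942. The undosed replicate 2 also had the highest share of reads outside genes (11.8%, against at most 10.7% in the other 16), and in replicate 5 at 1000 U/kg the 10 most abundant genes took 44.8% of gene counts (at most 37.2% in the other 16). The dose comparisons and the correlations are therefore given with all libraries and without these.

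All 3 collagen transcripts were detected in every liver, at levels typical of genes expressed there. Averaged over the 18 rats, Col1a1 stood at 38.5 CPM, above 78.6% of the genes tested. Col3a1 stood at 31.2 CPM, above 74.8% of them. Col1a2 stood at 10.1 CPM, above 48.8%, close to the median gene at 10.6 CPM. The spread between rats of the same dose was wide for the type I chains, and in each case single libraries carried much of it. The SD within dose groups of Col1a1 was 1.08 on the log2 scale, larger than that of 86.0% of genes, where the median gene had 0.65. Without the undosed replicate 1 it was 0.62, and 45.6% of genes had a lower SD. That of Col1a2 was 1.04, larger than that of 83.7% of genes, and 0.69 (75.4% of genes lower) without the undosed replicate 2 and replicate 5 at 1000 U/kg. Col1a1 had 1.10 (94.5% of genes lower) without that pair, and 0.53 (57.9% of genes lower) without the pair and the undosed replicate 1. Col3a1 had an SD of 0.56 (37.3% of genes lower) over all libraries and 0.49 (53.3% of genes lower) without the pair.

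Col1a1 encodes the pro-alpha-1 chain of type I collagen. In undosed rats it was at 2.45, 25.05, 65.1, 23.7, 32.0 and 57.2 CPM in replicates 1 to 6. At 1000 U/kg the values were 64.3, 29.7, 38.9, 22.5, 97.8 and 36.4 CPM. At 5000 U/kg they were 34.8, 40.0, 41.8, 20.8, 30.1 and 30.2 CPM. The groups overlapped throughout. The undosed rats held both a very low library, replicate 1, and 2 of the 4 highest, while the rats at 5000 U/kg lay close together. The low value of the undosed replicate 1 rested on 19 reads, with a 95% exact Clopper-Pearson interval of 1.44 to 3.72 CPM without TMM scaling. The next lowest of all 18 libraries, replicate 4 at 5000 U/kg, had 183 reads and an interval of 18.3 to 24.6 on that scale. These intervals cover the counting error of reads only. PCR copies of a molecule are counted as separate reads, so the error in molecules can be larger. The mean Spearman correlation of that undosed library with its group, 0.871, lay near the low end of the other 16.

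Col1a2 encodes the partner chain of type I collagen. Undosed rats had 10.7, 42.4, 5.35, 3.66, 7.69 and 4.68 CPM in replicates 1 to 6. Rats at 1000 U/kg had 4.35, 10.0, 12.9, 10.5, 32.5 and 4.50 CPM. Rats at 5000 U/kg had 3.25, 4.76, 9.34, 7.73, 2.23 and 5.78 CPM. The 2 libraries of low correlation were the only ones above 12.9 CPM. With them left out, undosed rats ranged from 3.66 to 10.7 CPM and those at 5000 U/kg from 2.23 to 9.34 CPM.

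Col3a1 encodes the chain of type III collagen. In undosed rats it was at 38.9, 20.1, 28.7, 20.5, 28.9 and 21.9 CPM in replicates 1 to 6. At 1000 U/kg it was at 21.3, 45.2, 53.2, 31.1, 76.6 and 20.2 CPM. At 5000 U/kg it was at 21.4, 24.3, 26.4, 41.7, 26.5 and 15.3 CPM. Of the 6 rats at 1000 U/kg, 3 lay above every undosed rat and the others lay within the undosed range. The highest was again replicate 5.

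**Figure D1:**
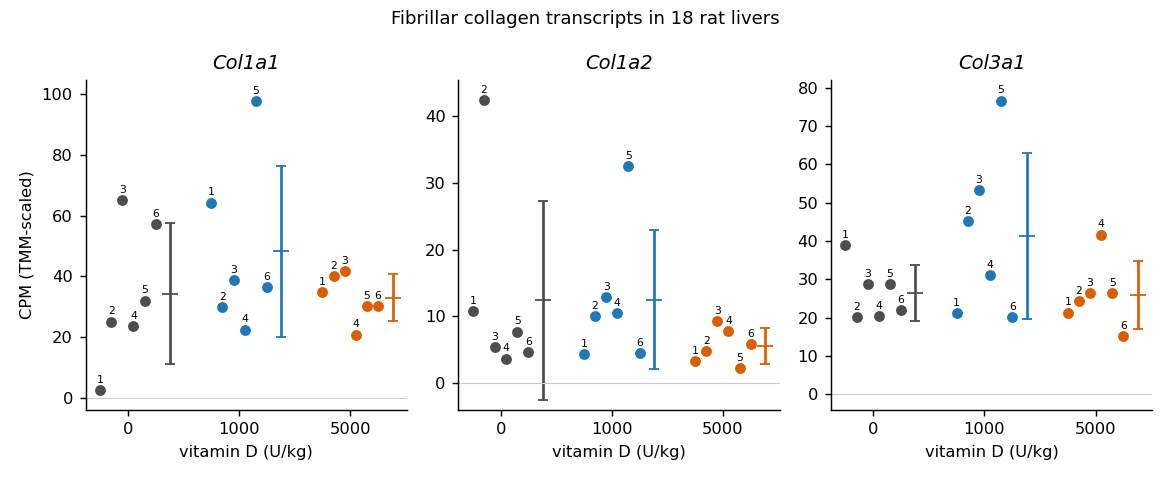
TMM-scaled CPM (vertical axis, linear) of Col1a1, Col1a2 and Col3a1 by vitamin D dose in U/kg (horizontal axis). Each point is 1 rat, numbered by its replicate, and the bar beside each group is mean ± SD (n = 6). Replicate 5 at 1000 U/kg is the highest library for Col1a1 (97.8 CPM) and Col3a1 (76.6 CPM), the undosed replicate 2 for Col1a2 (42.4 CPM), and the undosed replicate 1 is far below all others for Col1a1 (2.45 CPM).

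The first comparison asked whether liver collagen transcripts differ between 1000 and 0 U/kg. Col1a1 averaged 48.3 ± 28.1 CPM at 1000 U/kg and 34.3 ± 23.2 CPM in undosed rats (SD, n = 6 each). The means of Col1a2 were 12.5 ± 10.4 and 12.4 ± 14.9 CPM, and those of Col3a1 41.3 ± 21.7 and 26.5 ± 7.23 CPM. None of the 3 genes passed the threshold. In edgeR's quasi-likelihood test 0 of 11268 genes (0%) had a Benjamini-Hochberg adjusted p under 0.05. DESeq2 and limma also called 0.

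Col3a1 had the highest mean at 1000 U/kg relative to undosed rats, with a log2 fold change of 0.64 (SE 0.32). The 95% interval of its fold ran from 0.985 to 2.48, and its unadjusted p of 0.0573 became an edgeR adjusted p of 0.668. For Col1a1 the log2 fold change was 0.50 (SE 0.49) with a fold interval of 0.695 to 2.88 (edgeR adjusted p = 0.847). For Col1a2 it was 0.01 (SE 0.59), interval 0.429 to 2.38 (edgeR adjusted p = 0.996). In edgeR an unadjusted p under 0.05 was found for 0 of these 3 genes and for 839 (7.45%) of all genes tested. The median log2 fold change was 0.50 over the 3 collagen genes and -0.0046 over all genes.

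Single libraries shaped these values. Without replicate 5 at 1000 U/kg the log2 fold changes were 0.15 (SE 0.48) for Col1a1, -0.57 (SE 0.57) for Col1a2 and 0.36 (SE 0.29) for Col3a1. Without the undosed replicate 2 Col1a2 stood at 0.95 (SE 0.48), and without both libraries the values were 0.09 (SE 0.52), 0.41 (SE 0.40) and 0.31 (SE 0.29) in the order Col1a1, Col1a2, Col3a1. The value of Col1a1 was 0.26 without the undosed replicate 1 and 0.79 without the undosed replicate 3. None of these values passed the threshold.

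The second comparison, 5000 against 0 U/kg, covers the highest dose and shares its undosed rats with the first. Type I chain Col1a1 averaged 33.0 ± 7.67 CPM at 5000 U/kg, near its undosed mean. Type III chain Col3a1 averaged 25.9 ± 8.80 CPM, also near its undosed mean. The mean of Col1a2 was 5.52 ± 2.69 CPM, less than its undosed mean of 12.4 CPM, and its median was 5.27 CPM where that of undosed rats was 6.52 CPM. Again 0 of 11268 genes (0%) were called, these 3 included, by edgeR, DESeq2 or limma.

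For Col1a2 the log2 fold change in this comparison was -1.17 (SE 0.61), with an interval of the fold from 0.185 to 1.07, an unadjusted p of 0.0681 and an edgeR adjusted p of 0.99996. Most of this size was lost without the undosed replicate 2, with -0.24 (SE 0.48), and the value was -0.21 (SE 0.39) without both libraries of low correlation. For Col1a1 the log2 fold change was -0.06 (SE 0.49), interval of the fold 0.473 to 1.96, and for Col3a1 -0.03 (SE 0.32), interval 0.617 to 1.55 (edgeR adjusted p = 0.99996 for both). Col1a1 turned to 0.24 without the undosed replicate 3 and Col3a1 to 0.13 without the undosed replicate 1. In edgeR an unadjusted p under 0.05 was found for 0 of the 3 and for 400 (3.55%) of all genes.

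Between 5000 and 1000 U/kg the mean of each collagen gene was lower at the higher dose. Here too edgeR, DESeq2 and limma each called 0 of 11268 genes (0%). Col3a1 had a log2 fold change of -0.68 (SE 0.32), an interval of the fold from 0.394 to 0.994 and an unadjusted p of 0.0473, which adjusted to 0.815 in edgeR. In edgeR an unadjusted p under 0.05 was found for this gene alone of the 3, and for 660 (5.86%) of all genes. Col1a2 had -1.19 (SE 0.61), interval 0.183 to 1.06, and Col1a1 -0.56 (SE 0.49), interval 0.334 to 1.38 (edgeR adjusted p = 0.815 and 0.841).

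Without replicate 5 at 1000 U/kg these log2 fold changes were -0.41 (SE 0.29) for Col3a1, -0.63 (SE 0.58) for Col1a2 and -0.24 (SE 0.49) for Col1a1. None of the 3 genes separated the groups in any comparison. The share of all genes that did so was 0.0976% in the first comparison, 0.142% in the second and 0.186% between the doses.

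**Figure D2:**
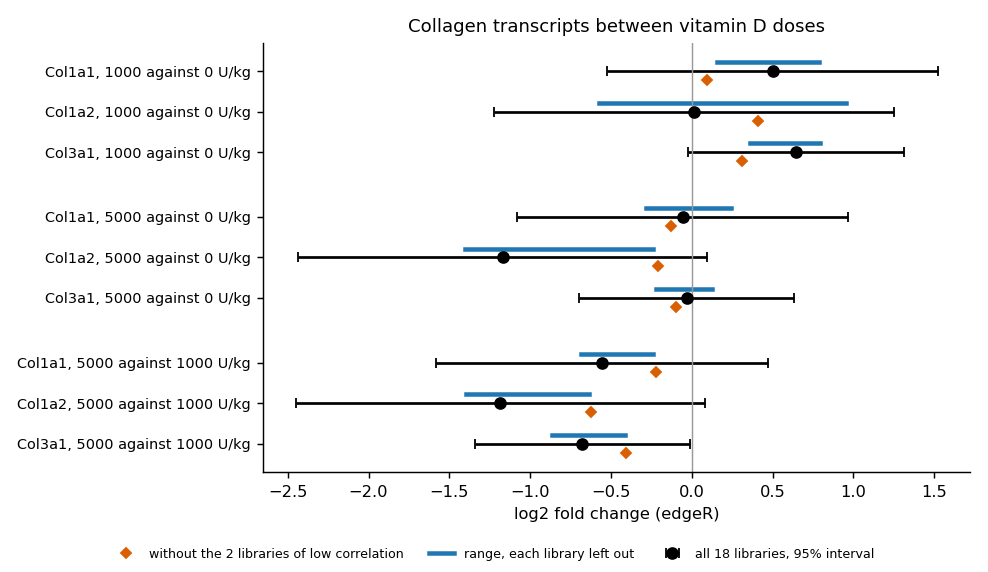
Log2 fold changes (horizontal axis) of each collagen gene in each comparison of doses (rows). Black points and bars are the edgeR estimate and its 95% interval over all 18 libraries, blue bars the range with each library left out, orange diamonds the estimate without the 2 libraries of low correlation. The orange diamonds lie closer to 0 than the black points for all genes at 5000 against 1000 U/kg, and Col1a2 at 5000 against 0 U/kg moves from -1.17 to -0.21.

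With all 3 doses tested at once, edgeR gave adjusted p-values of 0.890 for Col1a1, 0.852 for Col1a2 and 0.852 for Col3a1, with 0 of 11268 genes called (0%), as with limma. DESeq2 called 1 gene, which was none of these 3, and 630 genes (5.59%) had an unadjusted edgeR p under 0.05. By median the order of doses was 1000, 5000, 0 U/kg for Col1a1 (37.6, 32.5 and 28.5 CPM) and 1000, 0, 5000 U/kg for Col1a2 (10.3, 6.52 and 5.27 CPM). Col3a1 had medians of 38.1 CPM at 1000 U/kg, 25.346 CPM at 5000 U/kg and 25.334 CPM in undosed rats. No step in these orders passed the adjusted threshold.

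At 1000 against 0 U/kg the 95% interval of the log2 fold change reached 1.02 to either side for Col1a1, 1.24 for Col1a2 and 0.67 for Col3a1, where the median gene had 0.80. With 6 rats a group, the data were compatible with any change inside each interval. The intervals were not adjusted for the number of genes tested, so they are not limits of detection at the adjusted threshold.

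The rats also allow a look at how far the collagen genes move together from animal to animal. Col1a2 and Col3a1 tended to be high in the same rats. Over the 18 rats their log2 CPM had Pearson's r = 0.518 (permutation p = 0.0284) and Spearman's rho = 0.509 (permutation p = 0.0326), and 14 of 18 libraries lay on the same side of both medians. Adjusted over the 18 p-values of the 9 relations tested (each pair of genes, and each gene with the total gene count and with the share of reads outside genes), both became 0.294 and did not pass. The libraries farthest from the median of Col1a2 were the same pair of low correlation. Without them r was 0.692 (permutation p = 0.00309, adjusted p = 0.0278) and rho 0.724 (adjusted p = 0.0278, permutation test) over 16 rats. The adjustment was made within each set of libraries. It does not cover the choice of libraries left out, here the extremes of Col1a2 itself.

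The relation depended on which rats were included. In the undosed replicate 2 Col1a2 was highest of all and Col3a1 was 20.1 CPM, and without that library alone r was 0.813 (permutation p = 0.00012, adjusted p = 0.00216). Of all single omissions this one gave the highest r, and the adjusted p does not cover that choice. It is therefore not read as a passed test. Replicate 5 at 1000 U/kg was high in both genes, and without it r was 0.316. Within doses of 6 rats, r was -0.0732 in undosed rats, 0.953 at 1000 U/kg and 0.244 at 5000 U/kg (exact permutation p = 0.894, 0.00556 and 0.681). The second of these adjusted to 0.05 and did not pass (exact permutation test). As deviations from the dose means, r was 0.469 over 18 rats (permutation p = 0.0499, adjusted p = 0.300) and 0.653 without the pair of low correlation (permutation p = 0.0072, adjusted p = 0.130).

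No common movement of Col1a1 with its partner chain was detected. Its r with Col1a2 was -0.0496 (permutation p = 0.829, rho = -0.154, p = 0.541, adjusted p = 0.938 for r and 0.929 for rho), and its r with Col3a1 was -0.00449 (permutation p = 0.986, rho = -0.0217, p = 0.936, adjusted p = 0.986 for both). In 12 of 18 libraries Col1a1 and Col1a2 lay on opposite sides of their medians, and the same number held for Col1a1 and Col3a1. Without the 2 libraries farthest from the median of Col1a1, the undosed replicate 1 and replicate 5 at 1000 U/kg, the values of r were -0.293 with Col1a2 and -0.142 with Col3a1 (permutation p = 0.275 and 0.603). Without the undosed replicate 1 alone they were 0.0965 and 0.280, of opposite sign to those of all 18 rats. Without the pair of low correlation they were -0.349 with Col1a2 and -0.334 with Col3a1 (permutation p = 0.185 and 0.212, adjusted p = 0.592 for both). The size of these values thus depended on which libraries were included, and none passed the threshold.

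**Figure D3:**
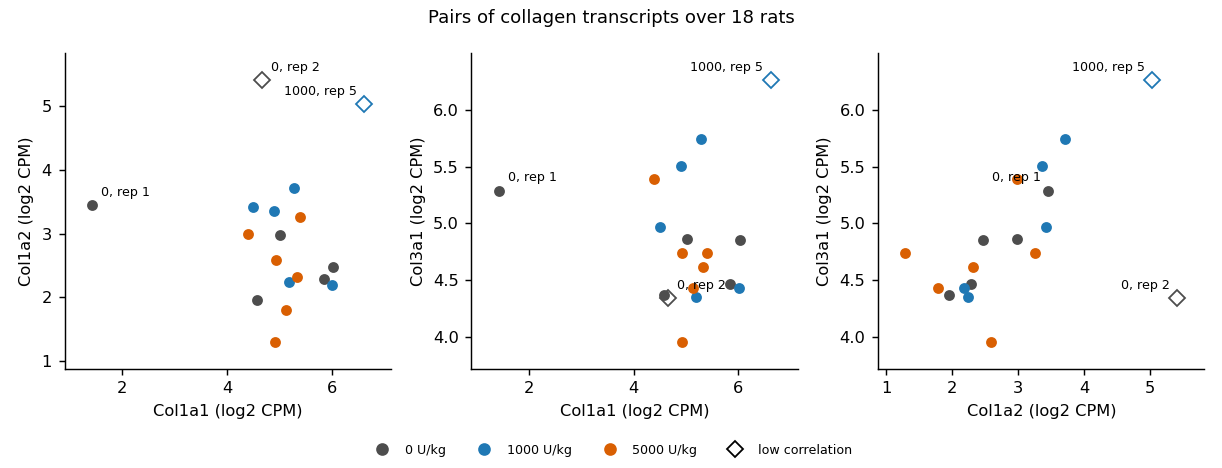
Log2 CPM (prior count 2) of each pair of collagen genes, 1 point per rat, coloured by dose, with open diamonds for the 2 libraries of low correlation. For Col1a2 and Col3a1 r is 0.518 over all 18 rats, 0.813 with the undosed replicate 2 left out and 0.316 with replicate 5 at 1000 U/kg left out, and for Col1a1 it is -0.0496 with Col1a2 and -0.00449 with Col3a1 (-0.349 and -0.334 without the open diamonds).

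Set against all genes, the likeness of Col1a2 and Col3a1 was fairly high, while that of Col1a1 to either lay near the middle over 18 rats and toward the low end over 16. Among 11302 other genes that averaged 1 CPM or more, Col1a2 ranked 943 by r with Col3a1 over the 18 rats, and 72 over the 16 rats without the pair of low correlation. In the other direction, Col3a1 ranked 961 by r with Col1a2 over 18 rats and 195 over 16. By r with Col1a1, Col1a2 ranked 6379 over 18 rats (43.6% of genes lower) and 9692 over 16 (14.2% lower), and Col3a1 ranked 5639 (50.1% lower) and 9518 (15.8% lower). These ranks are a description, as all genes share the same libraries. The genes most like the average of the 3 collagens over 18 rats were ENSRNOG00000018087 (r = 0.861) and ENSRNOG00000011754 (r = 0.836), which the files do not name. Over 16 rats their r was 0.671 and 0.571, and they ranked 6 and 39. With single collagen genes r was lower over the 18 rats. In the order Col1a1, Col1a2, Col3a1 it was 0.484, 0.716 and 0.423 for ENSRNOG00000018087, and 0.656, 0.478 and 0.463 for ENSRNOG00000011754.

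Neither library depth nor the share of reads outside genes tracked the collagen levels past the threshold. Of these 6 relations the farthest from 0 by r was that of Col3a1 with the share of reads outside genes (r = -0.388, permutation p = 0.113, rho = -0.276, p = 0.268, adjusted p = 0.508 and 0.929). Its r was -0.156 without replicate 5 at 1000 U/kg and -0.0216 without the pair of low correlation. By rho the farthest was Col1a1 with the same share (rho = -0.399, r = -0.217, permutation p = 0.102 and 0.373, adjusted p = 0.508 and 0.929). Here r was -0.548 without the undosed replicate 1 (permutation p = 0.0228, adjusted p = 0.258), -0.0546 without replicate 5 at 1000 U/kg and -0.0193 without the pair. Col1a2 had r = 0.121 with that share, and 0.0324 without the pair. Within the 6 rats at 1000 U/kg, Col1a1 had r = -0.968 with that share (exact permutation p = 0.00278, adjusted p = 0.05), and its part in the level of Col1a1 there was not tested. In the other doses that r was -0.0606 and 0.474. For Col1a2 with that share it was 0.879 in undosed rats (exact permutation p = 0.0736, adjusted p = 0.442), -0.517 at 1000 U/kg and -0.643 at 5000 U/kg. With the total gene count, Col3a1 had r = -0.0897 over 18 rats and -0.317 without the pair. Within undosed rats that relation had r = -0.854 and rho = -0.886 (exact permutation p = 0.0306 and 0.0333, adjusted p = 0.300 for both), against r = -0.103 at 1000 U/kg and -0.265 at 5000 U/kg. The part of depth in the undosed Col3a1 levels was not tested.

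The balance between the chains of type I collagen within each library does not depend on scaling. The ratio of Col1a1 to Col1a2 counts had medians of 5.31 in undosed rats, 3.01 at 1000 U/kg and 6.81 at 5000 U/kg, and ranges of 0.229 to 12.2, 2.14 to 14.8 and 2.69 to 13.5. In 16 of the libraries Col1a1 exceeded Col1a2 by 2.14 times or more. The exceptions were the undosed replicate 1, where Col1a1 made up 18.6% of the counts of both genes (95% exact Clopper-Pearson interval 11.6 to 27.6), and the undosed replicate 2, where it made up 37.1% (33.3 to 41.1). These came about differently. In replicate 1 Col1a1 was the lowest of all libraries while Col1a2 lay within the range of the others, and in replicate 2 Col1a2 was the highest of all while Col1a1 lay within the range of the others.

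The ratio of Col1a2 to Col3a1 was steadier than that of Col1a1 to Col1a2 within each dose. Its highest over lowest value was 11.8, 2.08 and 4.49 at 0, 1000 and 5000 U/kg, against 53.4, 6.91 and 5.02. It lay between 0.0844 and 0.425 in 17 libraries, with medians of 0.240 in undosed rats, 0.233 at 1000 U/kg and 0.191 at 5000 U/kg. The undosed replicate 2 stood outside with 2.11. Replicate 5 at 1000 U/kg, although highest or next to highest in all 3 genes, had an ordinary ratio of Col1a1 to Col1a2 of 3.01, close to the 2.96 and 3.01 of replicates 2 and 3 of its dose. The ratio of Col1a1 to Col3a1 ranged from 0.0631 in the undosed replicate 1 to 3.02 in replicate 1 at 1000 U/kg, with medians of 1.20, 1.004 and 1.61 at 0, 1000 and 5000 U/kg. Its highest over lowest value was 41.3, 4.59 and 3.97 in that order of doses. At 5000 U/kg it thus varied less than the ratio of Col1a2 to Col3a1. No test was made of these ratios.

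**Figure D4:**
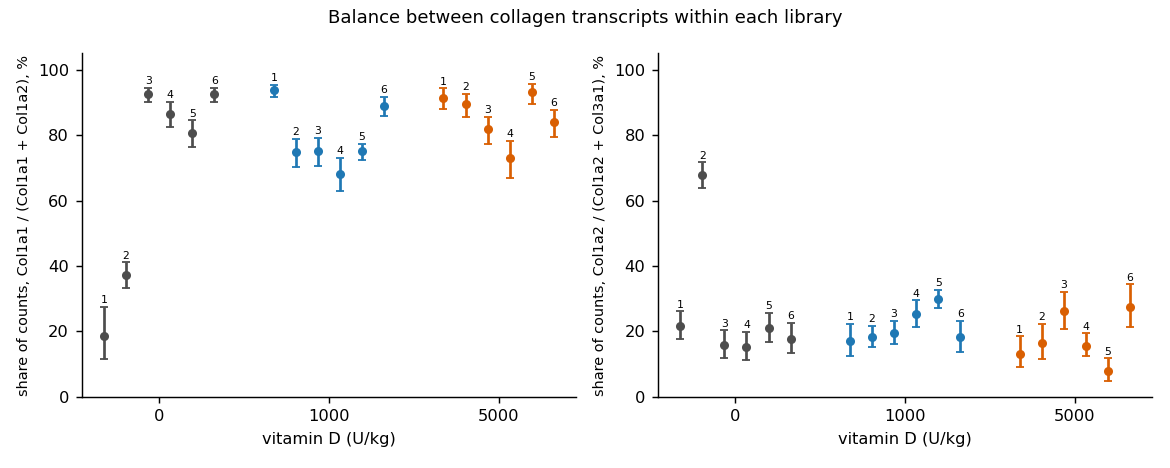
Share of counts (vertical axis, percent) of Col1a1 in Col1a1 plus Col1a2 (left) and of Col1a2 in Col1a2 plus Col3a1 (right) by dose in U/kg. Each rat is 1 numbered point with its 95% exact Clopper-Pearson interval, which covers the counting error of reads only. The undosed replicates 1 (18.6%) and 2 (37.1%) lie below all others on the left, and the undosed replicate 2 (67.8%) above all others on the right.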

How the data were processed

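The authors deposited raw read counts per Ensembl gene for 18 liver libraries, 1 file per rat, with no normalization. Per the labels' protocols, RNA came from the Total RNA Mini kit and libraries from the QuantSeq 3' FWD kit. STAR, HTSeq, FastQC and DESeq2 are named, per the submitters' processing notes. As to versions, strand setting, annotation and build, nothing is given in the sources used here. A 3' count rests on the annotated gene end, so a fault there or an overlapping gene could shift a level. The 5 HTSeq summary rows entered neither library sizes nor tests. Reads outside genes made up 7.34% to 11.8% of all rows, reads in more than 1 gene 2.54% to 3.84%, and reads aligned at more than 1 place 8.45% to 14.1%. The RefSeq table at hand carries no Ensembl IDs, so lists of other collagen, matrix and cell marker genes could not be applied.

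The 3 genes and the lists were chosen with earlier results of these data known. Tests used edgeR 4.0.16 (R 4.3.3) on all 18 libraries and 11268 genes: filterByExpr, TMM scaling, robust quasi-likelihood F tests for 3 dose groups without covariates, Benjamini-Hochberg adjustment over all genes, threshold 0.05. Intervals of fold changes used the SE implied by F and its t quantile. The test was checked on simulated counts. Correlations used log2 CPM (prior count 2), with 100000 permutations or all 720 orders of 6 rats, two-sided, in Python 3.11.15. The labels do not call same-numbered rats paired. Of 18 same-numbered pairs, 10 had deviations from the dose mean that correlated over 0.1, and 6 correlated below 0. Pairs of different numbers were not compared, so these values do not decide whether rats were paired. Counts of libraries of a group differed beyond sampling noise (chi-square at least 14.6 per degree of freedom). As the labels name no separate housing or litters, p-values measure the spread between these rats and their preparation. Alternatives were DESeq2 1.42.0, limma 3.58.1 (voom with quality weights), other scalings and filters, a replicate block, fits of the compared groups only, and libraries left out. Named genes are the collagens and the 2 genes of highest r with their average.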

Additional observations from a re-analysis of the deposited data

Results flagged for a closer look

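A value was picked out when it stood apart from the other 5 rats of its dose by more than Dixon's limit for 6 samples. The limit was applied to CPM, count ratios and library measures without taking logs. Its rate by chance of about 1 in 20 groups holds for normally distributed values, and whether these were so was not tested. Of the 27 groups of values checked, 6 held such a rat, several of them describing the same library. This number therefore does not show an excess over chance, and the rats picked out are those apart on the unlogged scale. Col1a2 in the undosed replicate 2 was 42.4 CPM, where the next undosed rat had 10.7 CPM. The ratio of Col1a2 to Col3a1 there was 2.11 (next 0.276), its share of reads outside genes 11.8% (next 8.91%) and its mean correlation with its group 0.698 (next 0.869). The part of these library measures in the Col1a2 value was not tested. Col1a2 in replicate 5 at 1000 U/kg was 32.5 CPM (next 12.9 CPM), in a library whose mean correlation was 0.801 (next 0.906). The low Col1a1 of the undosed replicate 1 did not pass this limit on the CPM scale. There its gap to the next rat was 0.338 of the range, as the other undosed rats were spread from 23.7 to 65.1 CPM. On the log2 scale used for the correlations it was at 1.42, and the other undosed rats lay between 4.58 and 6.03. The limit was not applied on that scale, so this miss holds for CPM only.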

How the results depend on the processing

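No collagen gene passed 0.05 under any alternative run, and the number of called genes was 0 throughout the 3 comparisons. It was 0 in the test of any dose except with DESeq2, which called 1 gene. The log2 fold changes kept their sign in all 27 alternatives for Col3a1 at 1000 against 0 U/kg, Col1a2 at 5000 against 0 U/kg and all 3 genes at 5000 against 1000 U/kg. For 1000 against 0 U/kg, Col1a2 gave -0.030 under size factors from DESeq2, -0.0065 with no filter, -0.031 with DESeq2, and -0.57 to 0.95 with single libraries left out. With limma it was 0.81 (SE 0.33, unadjusted p = 0.0215, adjusted p = 0.535). Col3a1 had 0.58 (SE 0.25, unadjusted p = 0.0309, adjusted p = 0.537) in that limma fit. There 1026 of 11268 genes had an unadjusted p under 0.05. Col1a2 at 5000 against 0 U/kg was -0.16 (SE 0.37) with limma and -1.23 (SE 0.60, unadjusted p = 0.0408, adjusted p = 0.998) with DESeq2. In that DESeq2 comparison 458 of 11268 genes had an unadjusted p under 0.05. At 5000 against 1000 U/kg the unadjusted limma p was 0.0104 for Col1a2 and 0.00563 for Col3a1 (adjusted p = 0.196 for both). With limma 2309 of 11268 genes had an unadjusted p under 0.05 there. Those of DESeq2 were 0.0460 and 0.0391, with 635 genes under 0.05. Col1a1 at 1000 against 0 U/kg was -0.027 with limma. At 5000 against 0 U/kg, leaving out single libraries gave -0.29 to 0.24 for Col1a1 and -0.22 to 0.13 for Col3a1. With the replicate number as a block Col1a1 at 5000 against 0 U/kg was 0.066 and 0 genes were called in all 4 tests. The block changed no other direction or call.

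The correlation of Col1a2 with Col3a1 was 0.692 without the pair of low correlation, which are also the libraries farthest from the median, -0.0732 within undosed rats, and 0.316 to 0.813 with single libraries left out. That of Col1a1 with Col1a2 was 0.361 within 1000 U/kg and -0.291 to 0.0965 with single libraries left out, and that of Col1a1 with Col3a1 0.340 within 1000 U/kg and -0.310 to 0.280. With the total gene count, Col1a1 had r = -0.314 without the 2 farthest libraries, -0.632 within 5000 U/kg and -0.0718 to 0.218 with single libraries left out. Col1a2 had -0.0770 as deviations from dose means, -0.208 without the pair of low correlation or farthest libraries, -0.175 within undosed rats and -0.253 within 5000 U/kg. Col3a1 had -0.349 to 0.0183 with single libraries left out, and -0.854 within undosed rats. With the share of reads outside genes, Col1a2 had 0.879 within undosed rats, -0.517 within 1000 and -0.643 within 5000 U/kg, and -0.320 to 0.453 with single libraries left out, and Col1a1 had 0.474 within 5000 U/kg and -0.548 to -0.0546 with single libraries left out. In alternatives chosen after seeing the data, which include the SD within doses without single libraries, leaving out the undosed replicate 1 with that pair gave r with the total gene count of -0.278 for Col1a1 and -0.160 for Col1a2, and 0.0151 for Col3a1 with the share outside genes. Col1a2 with Col3a1 was then 0.664 (permutation test, adjusted p = 0.0625). Deviations from dose means without the pair gave Col1a2 -0.404 with the total gene count and -0.00313 with the share outside genes. The cause of these shifts was not tested. In 16 libraries Col1a2 rested on 20 to 113 reads, fewer than either other gene except in the undosed replicate 1, where Col1a1 had 19, so apart from that library its counting error there was relatively the largest of the 3.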
